A study of Rattus norvegicus with 12 samples.

Results

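Fibronectin and the proteins of elastic fibres form a connected part of the extracellular matrix, and 10 of their genes were followed here in RNA from rat joint tissue. The genes were Fn1, Eln, Fbn1, Fbn2, Efemp1, Fbln1, Fbln2, Fbln5, Mfap4 and Mfap5. They were chosen by gene name, with earlier results of these data known, and all 10 were found among 23144 genes listed. Their values are therefore a description, and no count over them is independent evidence that the family changed.

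Fibronectin is a secreted glycoprotein that cells pull into fibrils through integrins, and this network serves as a scaffold on which other matrix proteins are laid down. An elastic fibre has a core of crosslinked elastin within a sheath of microfibrils, whose backbone is fibrillin. Fibulins and microfibril-associated proteins bind fibrillin, elastin or fibronectin and help to bring the parts together. In a joint these proteins are made mainly by fibroblasts of the synovium, capsule, ligament and tendon and by vascular smooth muscle cells, and fibronectin fragments are a known feature of damaged cartilage.

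The 12 libraries fell into groups labelled sham, model and treatment, with 4 libraries in each. The series is about Yi-Ping Lin circum-knee acupuncture for knee osteoarthritis, and the tissue is given as joint for all libraries. The labels used here do not give the strain, age or sex, how the model was made, what the treatment libraries received in addition, or which part of the joint was taken. They do not say that the libraries came from separate animals, so the p-values measure the spread between these libraries, which may in part be technical. Libraries held 15513116 to 17218402 reads assigned to genes.

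Levels below are reads of a gene per 1000000 gene reads of the library (RPM). Where stated, levels compared between genes are also divided by gene length in kilobases. Ranks among all genes, shares of reads and ratios of reads are not divided by length, which favours long genes. A fold change is on the scale of log2(normalised value + 1), is given ± its standard error from limma over 4 against 4 libraries, and counts as called at a Benjamini-Hochberg adjusted p under 0.05 over all genes tested. Adding 1 understates the change of low genes. The fewest reads of any of the 10 genes in a library were 31, for Mfap4 in sham 4. For Fbn2, with 37 to 63 reads in the sham libraries, counting error is part of the spread between them.

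The libraries differed in tissue make-up in ways that touch every result below. Summed over marker lists, red-cell precursor genes (6 of 6 in the files) stood at 2524 to 3677 RPM in sham, 1906 to 6807 in model and 7.46 to 85.8 in treatment libraries. Neutrophil genes (8 of 8) stood at 13878 to 23297, 3732 to 13728 and 4.50 to 201 RPM, and B cell genes (5 of 5) at 188 to 383, 132 to 310 and 4.14 to 8.10 RPM. Skeletal muscle genes (6 of 8) were highest in treatment 2 at 35167, sham 2 at 25306 and sham 4 at 22886 RPM. They stood at 6390 RPM in sham 1, 1172 in sham 3, 91.9, 297 and 2618 in treatment 1, 3 and 4, and 51.1 to 615 in model libraries. Fits without the muscle-rich libraries, treatment 2, sham 2 and sham 4, thus still compared sham and model libraries that differed in muscle level. Chondrocyte genes (7 of 7) were present in all groups, at 679 to 1614 RPM in sham, 133 to 2458 in model and 416 to 12754 in treatment libraries. Osteoblast genes (6 of 6) stood at 708 to 1562 RPM in sham and 287 to 1854 in model libraries, and at 2234, 72.4, 243 and 37.3 in treatment 1 to 4. Adipocyte genes (5 of 5) stood at 510 to 2827 RPM in sham, 483 to 3597 in model and 146 to 874 in treatment libraries. In whole tissue, fewer cells of a type and less RNA per cell cannot be told apart. The part of these differences in the results for the 10 genes was not tested, except where values relative to fibroblast markers or without the muscle-rich libraries are given.

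Fn1 (chr9:73196044-73264678, minus strand, mRatBN7.2) encodes fibronectin and dominated the family in every library. Its share was 0.629, 0.130, 0.258 and 0.141% of reads in sham 1 to 4, 0.224, 1.76, 2.21 and 0.300 in model 1 to 4, and 4.49, 3.41, 4.79 and 1.38 in treatment 1 to 4. Every treatment library lay above every sham library, while the model libraries split into a low pair, model 1 and model 4, and a high pair, model 2 and model 3. Ranks among all genes of a library were by reads, not divided by gene length. Fn1 ranked 6, 54, 19 and 46 in sham 1 to 4, 20, 3, 2 and 20 in model 1 to 4, and 1 in each treatment library. Mean levels were 2897 ± 2334 RPM (SD, n = 4) in sham, 11234 ± 10117 in model and 35172 ± 15406 in treatment libraries. The log2 fold change was 1.63 ± 0.83 (adjusted p = 0.431) for model against sham, 2.31 ± 0.82 (adjusted p = 0.0946) for treatment against model and 3.91 ± 0.57 (adjusted p = 0.000796) for treatment against sham, so only the last was called. Leaving out any single library kept that call, and so did leaving out the 3 muscle-rich libraries, with a log2 fold change of 3.11 (adjusted p = 0.0258). The deposited values are per gene, so the splice forms of fibronectin, which separate the plasma form from the cellular form, could not be told apart. The liver makes plasma fibronectin, and hepatocyte markers (4 of 5 in the files) summed to at most 5.52 RPM in any library. This sum does not tell which splice form the libraries held, and the form was not tested. The gene that overlaps Fn1 on the other strand had 40 reads in all libraries together.

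Eln (chr12:21968544-22011928, plus strand) encodes tropoelastin, the soluble precursor of the elastin core. Its level was 132, 24.4, 38.9 and 26.9 RPM in sham 1 to 4, 20.0, 1217, 274 and 241 in model 1 to 4, and 209.6, 123, 252 and 349 in treatment 1 to 4. Model 2 was the highest of all 12 libraries and model 1 the lowest, so the model group spanned the whole range, 60.7-fold from lowest to highest. The 4 treatment libraries lay close together by comparison, 2.84-fold from lowest to highest, and overlapped sham only through sham 1 and treatment 2. Treatment against sham was called at 2.50 ± 0.51 (adjusted p = 0.00518), whereas model against sham gave 2.24 ± 1.10 (adjusted p = 0.422) and treatment against model 0.28 ± 1.04 (adjusted p = 0.879). The sign of the last value turned with the tool, with -0.76 in edgeR's quasi-likelihood fit and -0.77 in DESeq2, and with -0.81 in limma without model 1. DESeq2 on recovered reads called Eln in model against sham at 3.05 (adjusted p = 0.0303). The authors' deposited table gave 3.05 too, at an adjusted p of 0.0972, which is no call. The highest library there, model 2, was also the highest for smooth muscle and pericyte markers (7 of 7 in the files). These markers summed to 1034, 259, 402 and 400.1 RPM in sham 1 to 4, 227, 5521, 1085 and 2662 in model 1 to 4, and 1793, 1795, 1311 and 1264 in treatment 1 to 4. Model 2 was also the highest of the 12 for adipocyte markers, at 3597 RPM, and for endothelial markers (7 of 7 in the files). The endothelial markers summed to 358 to 786 RPM in sham, 409, 1776, 825 and 964 in model 1 to 4, and 659 to 951 in treatment libraries. The part of these lists in the level of Eln was not tested.

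The fibrillins differed in level and in how the treatment libraries were spread. Fbn1 (chr3:112554925-112750889, minus strand), the main fibrillin of adult microfibrils, stood at 554, 232, 312 and 166 RPM in sham 1 to 4, 183, 687, 485 and 347 in model 1 to 4, and 572, 419, 1136 and 1395 in treatment 1 to 4. Its treatment libraries 3 and 4 lay above all others, while treatment 1 and 2 lay within the range of sham and model. The log2 fold change was 0.43 ± 0.45 (adjusted p = 0.678) for model against sham, 1.20 ± 0.47 (adjusted p = 0.118) for treatment against model and 1.61 ± 0.43 (adjusted p = 0.0174) for treatment against sham. Fbn2 (chr18:51499737-51703976, minus strand), a fibrillin best known from development, stood at 3.87, 2.22, 3.95 and 3.69 RPM in sham 1 to 4, 3.61, 2.03, 7.31 and 2.40 in model 1 to 4, and 3.75, 7.51, 25.6 and 26.5 in treatment 1 to 4. Only treatment 3 and treatment 4 stood well above the rest, and treatment 1 was at the sham level. Its log2 fold change was 0.02 ± 0.42 (adjusted p = 0.982), 1.95 ± 0.67 (adjusted p = 0.0864) and 1.95 ± 0.59 (adjusted p = 0.0282) in the same order. In treatment against model Fbn2 was the 1 gene of the 10 that passed elsewhere, with an adjusted p of 0.00794 in DESeq2, of 0.0395 in limma without treatment 1 and of 0.00780 in the authors' deposited table. The call in treatment against sham was lost on leaving out treatment 3, treatment 4 or any 1 of the sham libraries, at adjusted p values of 0.0531 to 0.0773. Fbn1 exceeded Fbn2 in every library, with 44.3 to 339 reads for each read of Fbn2.

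The treatment libraries in which Fbn1 and Fbn2 were high were also high for Fbln2 and Mfap5. The stretch before the start of these 4 genes is shown to compare genes high in the same treatment libraries. This set was named after the values were seen. The 4 genes did not move together in the model group, where model 2 was lowest for Fbn2 and highest for Fbn1, Fbln2 and Mfap5. Eln, Fbln1 and Mfap4 were also highest in treatment 3 and 4 within the treatment group, but were not among the genes with a sequence match. The sequences are the 250 bases before each gene's start, 5′ to 3′ on the gene's strand, from RefSeq (GRCr8), which held a match for 6 of the 10 genes. Capitals mark CG pairs, the sites that DNA methylation uses in mammals.
Fbn1, chr3:133203391-133203640, minus strand: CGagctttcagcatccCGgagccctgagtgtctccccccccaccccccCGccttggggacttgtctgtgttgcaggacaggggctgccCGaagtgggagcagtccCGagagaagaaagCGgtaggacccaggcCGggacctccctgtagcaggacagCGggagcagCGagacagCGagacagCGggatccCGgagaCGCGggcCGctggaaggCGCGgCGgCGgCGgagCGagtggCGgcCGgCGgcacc
Fbn2, chr18:53901993-53902242, minus strand: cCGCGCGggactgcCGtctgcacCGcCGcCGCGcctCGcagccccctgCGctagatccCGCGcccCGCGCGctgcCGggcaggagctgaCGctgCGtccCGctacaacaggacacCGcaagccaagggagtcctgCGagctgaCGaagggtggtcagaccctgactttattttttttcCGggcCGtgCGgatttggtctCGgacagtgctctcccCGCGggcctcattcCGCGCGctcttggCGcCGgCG
Fbln2, chr4:125261409-125261658, plus strand: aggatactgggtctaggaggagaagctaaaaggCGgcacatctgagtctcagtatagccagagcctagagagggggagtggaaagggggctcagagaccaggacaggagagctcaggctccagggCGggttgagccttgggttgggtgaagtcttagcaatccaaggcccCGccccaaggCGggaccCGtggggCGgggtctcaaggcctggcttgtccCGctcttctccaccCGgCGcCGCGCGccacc
Mfap5, chr4:157399669-157399918, plus strand: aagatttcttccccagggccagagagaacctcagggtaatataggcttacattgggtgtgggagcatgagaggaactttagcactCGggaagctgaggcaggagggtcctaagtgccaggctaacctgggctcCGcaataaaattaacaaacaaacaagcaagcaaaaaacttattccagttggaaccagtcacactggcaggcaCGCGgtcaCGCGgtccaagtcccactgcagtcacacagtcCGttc
The stretches differed in CG content. Fbn2 held 34 CG pairs, a number that 3.03% of 33469 rat promoters of this length reached, and Fbn1 held 24, which 10.9% reached. Fbln2 held 12 and Mfap5 held 7, against a median of 5 over all promoters, and the other matched genes, Fbln5 and Efemp1, held 14 and 8. The letters TATAAA, searched on both strands, were in 0 of the 6 stretches and in 12.9% of all promoters. GGGCGG was in Fbln2, Fbln5 and Efemp1 and in 30.5% of all promoters, CCAAT in Mfap5 and in 34.0%, and TGANTCA in Efemp1 and in 6.34%. The CArG motif was in 0 of 6 and in 1.50%. A match is a description of letters and no evidence of binding.

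The fibulins divided into 3 genes that were higher in treatment than in sham libraries and 1 that was not. Fbln2 (chr4:123704373-123763948, plus strand), which binds fibronectin and fibrillin, stood at 128, 37.9, 61.9 and 18.3 RPM in sham 1 to 4, 8.77, 178, 139 and 94.8 in model 1 to 4, and 154, 159, 403 and 449 in treatment 1 to 4. All treatment libraries lay above all sham libraries, with treatment 3 and 4 highest of the 12 and model 1 lowest. The log2 fold change was 0.49 ± 0.94 (adjusted p = 0.835) for model against sham, 2.10 ± 0.88 (adjusted p = 0.144) for treatment against model and 2.56 ± 0.59 (adjusted p = 0.00915) for treatment against sham. Fbln5 (chr6:120899224-120977755, minus strand), which binds tropoelastin and is needed for elastic fibre assembly in mice, stood at 56.6, 21.7, 26.2 and 16.7 RPM in sham 1 to 4, 17.2, 84.0, 55.1 and 36.2 in model 1 to 4, and 54.4, 59.2, 128 and 55.7 in treatment 1 to 4. Treatment 3 stood apart above the other treatment libraries, which lay near sham 1. Its log2 fold change in treatment against sham was 1.50 ± 0.39 (adjusted p = 0.0157). Efemp1 (chr14:102610908-102690018, plus strand), which encodes fibulin-3, stood at 37.6, 7.13, 9.91 and 4.68 RPM in sham 1 to 4, 3.74, 56.5, 22.2 and 23.5 in model 1 to 4, and 42.1, 47.7, 29.0 and 44.3 in treatment 1 to 4. The treatment libraries were the most even of the groups, 1.64-fold from lowest to highest, against 8.03-fold in sham and 15.1-fold in model. Its log2 fold change in treatment against sham was 2.06 ± 0.54 (adjusted p = 0.0165), a call that edgeR did not make (adjusted p = 0.0609), and without the 3 muscle-rich libraries it was 1.13 (adjusted p = 0.184).

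Fbln1 (chr7:116310582-116390075, plus strand), which binds fibronectin and elastin and is also found in blood vessel walls, stood at 51.6, 20.0, 47.7 and 15.6 RPM in sham 1 to 4, 19.6, 26.7, 36.0 and 31.0 in model 1 to 4, and 26.5, 8.85, 40.9 and 101 in treatment 1 to 4. Treatment 2 was the lowest and treatment 4 the highest of the 12 libraries, so the treatment group enclosed both other groups. The log2 fold change was 0.23 ± 0.69 (adjusted p = 0.823) in treatment against sham, and -0.29 without treatment 4. Reads of Fbln2 per read of Fbln1 were 2.49, 1.90, 1.30 and 1.17 in sham 1 to 4, 0.447, 6.65, 3.86 and 3.06 in model 1 to 4, and 5.80, 18.0, 9.86 and 4.43 in treatment 1 to 4. This ratio did not overlap between sham, at 1.17 to 2.49, and treatment, at 4.43 to 18.0, and it was below 1 in model 1 alone.

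Both microfibril-associated genes were called higher in treatment than in sham libraries. Mfap4 (chr10:46167217-46170155, plus strand) encodes a glycoprotein with a fibrinogen-like domain that binds elastin and fibrillin. Its level was 18.9, 8.62, 33.4 and 1.82 RPM in sham 1 to 4, 3.80, 176, 75.9 and 46.6 in model 1 to 4, and 59.1, 93.8, 190.5 and 302 in treatment 1 to 4. Every treatment library lay above every sham library, model 2 and model 3 lay in the treatment range, and model 1 lay below 3 of the sham libraries. The log2 fold change was 1.98 ± 1.21 (adjusted p = 0.488) for model against sham, 1.92 ± 1.06 (adjusted p = 0.252) for treatment against model and 3.88 ± 0.88 (adjusted p = 0.00980) for treatment against sham, a size close to that of Fn1. Mfap5 (chr4:155727925-155750458, plus strand), whose protein binds fibrillin, stood at 63.8, 16.4, 31.7 and 3.92 RPM in sham 1 to 4, 5.35, 100.3, 66.2 and 46.4 in model 1 to 4, and 64.6, 52.4, 135 and 178 in treatment 1 to 4. Sham 1 lay level with treatment 1 and above treatment 2, so the groups overlapped. Its log2 fold change in treatment against sham was 2.46 ± 0.79 (adjusted p = 0.0400), the adjusted p nearest to the threshold among the genes called. The call was lost in edgeR (adjusted p = 0.0561), without treatment 1, 3 or 4, without sham 2 or 3 (adjusted p = 0.0526 to 0.102), and without the 3 muscle-rich libraries, where the log2 fold change was 1.53 (adjusted p = 0.0635).

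**Figure D1:**
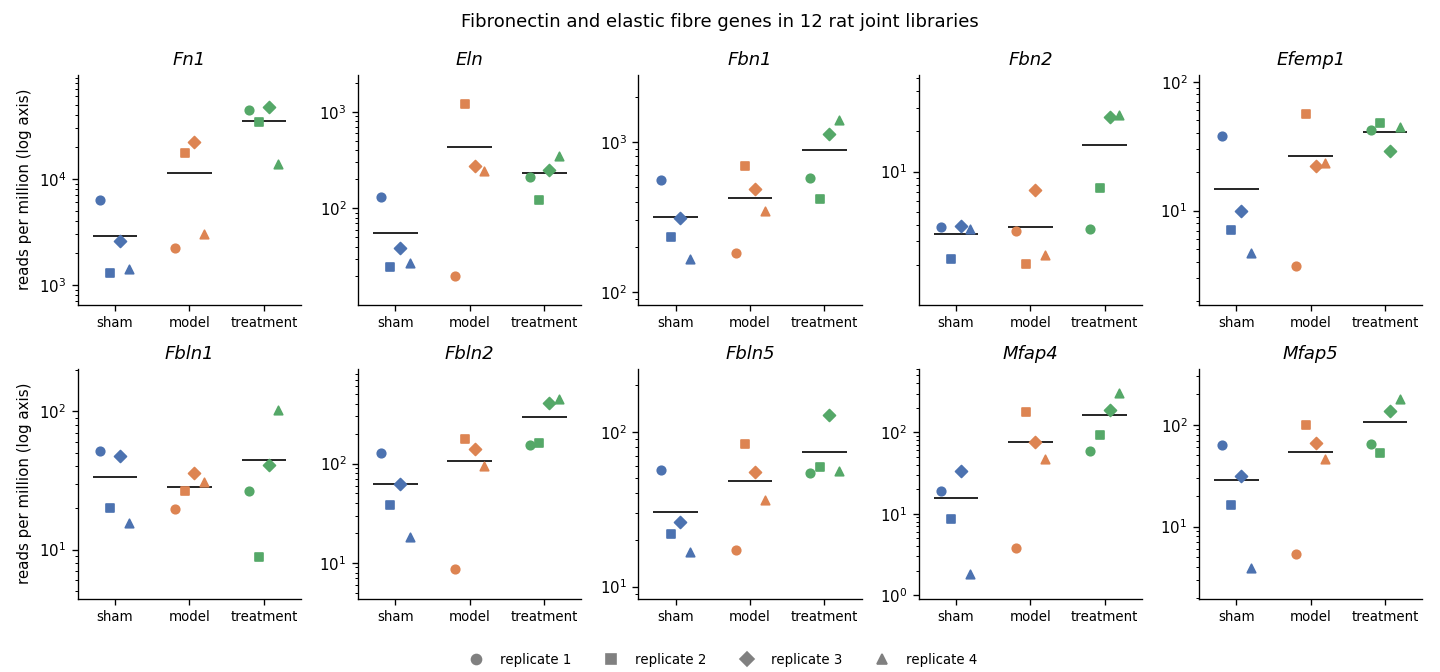
Level of each of the 10 genes in RPM (log axis, a separate range per gene) in the sham, model and treatment libraries; each point is 1 library, its shape gives the replicate number and the black line is the group mean. Fn1, Fbln2 and Mfap4 have all 4 treatment libraries above all 4 sham libraries, and model 1 is the lowest model library for 9 of the 10 genes.

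In levels divided by gene length, Fn1 was the first of the 10 in each group and Fbn2 the last. Fn1 averaged 348 ± 280.2 RPM per kilobase (SD, n = 4) in sham, 1348 ± 1214 in model and 4221 ± 1849 in treatment libraries, and Fbn2 averaged 0.384 ± 0.0915, 0.429 ± 0.270 and 1.77 ± 1.33 on this scale. The order between these ends differed between groups, with Fbn1 and Mfap5 following Fn1 in sham, Eln and Mfap4 in model, and Mfap4 and Fbn1 in treatment libraries. Mfap4 moved from place 7 in sham to place 2 in treatment libraries, where it averaged 100.1 ± 67.6 RPM per kilobase beside 92.0 ± 48.2 for Fbn1, 81.9 ± 45.2 for Mfap5, 65.0 ± 26.2 for Eln and 62.1 ± 33.5 for Fbln2. The ranges of mean ± SD of these 5 genes overlapped, and so did those of Efemp1, Fbln1 and Fbln5 in each group. The places are those of group means and did not hold in each library. Mfap4 lay below Fbn1 and Mfap5 in model 1, 3 and 4. In treatment 1 it stood at 36.7 RPM per kilobase, below Fbn1 at 59.8, Eln at 58.3 and Mfap5 at 49.2.

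Model against sham gave no call. Of the 10 genes, 0 passed the adjusted threshold in limma, where 0% of all genes were called higher and 0% lower. At an unadjusted p under 0.05 limma counted 2618 of 20205 genes, and the smallest adjusted p of any gene was 0.203. Among the 10 genes edgeR called 0 and DESeq2 called Eln, which the authors' deposited table did not (adjusted p = 0.0972). The share of all genes that edgeR or DESeq2 called was not counted. In none of the 10 did all model libraries lie above all sham libraries, against 3.08% of all genes. The log2 fold change of Mfap5 was 0.93 ± 1.03 (adjusted p = 0.697), of Efemp1 0.80 ± 0.85 (adjusted p = 0.686), of Fbln5 0.62 ± 0.51 (adjusted p = 0.595) and of Fbln1 -0.09 ± 0.38 (adjusted p = 0.934). The median log2 fold change of the 10 genes was 0.71, against 0.03 over all genes. Without sham 2 and sham 4 the signs of Mfap5, Efemp1, Fbln2, Fbn1 and Fbn2 turned negative, at -0.26, -0.016, -0.34, -0.060 and -0.15.

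Treatment against model also gave 0 calls in limma among the 10 genes, where 3.6% of all genes were called higher and 10.5% lower. The smallest adjusted p values among the 10 were 0.0864 for Fbn2 and 0.0946 for Fn1. In none did all treatment libraries lie above all model libraries, against 8.51% of all genes. Of the genes not yet given, Mfap5 had a log2 fold change of 1.56 ± 0.84 (adjusted p = 0.240), Efemp1 of 1.29 ± 0.69 (adjusted p = 0.240), Fbln5 of 0.91 ± 0.48 (adjusted p = 0.234) and Fbln1 of 0.35 ± 0.60 (adjusted p = 0.732). The median log2 fold change was 1.43, against 0.02 over all genes. A p above the threshold here does not show that the groups were alike. The standard errors ran from 0.47 to 1.06, beside log2 fold changes of 0.28 to 2.31. Only for Eln (0.28 ± 1.04) and Fbln1 (0.35 ± 0.60) was the standard error larger than the change.

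Treatment against sham gave calls for 9 of the 10 genes, all higher in treatment, and Fbln1 was the exception. Of all genes, 17.3% were called higher and 19.5% lower. On the authors' normalised values all treatment libraries lay above all sham libraries for Fn1, Eln, Fbln2, Fbln5, Fbn2 and Mfap4, against 16.9% of all genes, and on RPM Eln, Fbln5 and Fbn2 overlapped. The median log2 fold change was 2.27, against -0.01 over all genes. Without the muscle-rich libraries, which leaves 2 sham against 3 treatment libraries, 4 genes were called, namely Fn1, Eln, Fbln2 and Mfap4, and the other 5 had adjusted p values of 0.0619 for Fbn1, 0.0635 for Mfap5, 0.151 for Fbn2, 0.169 for Fbln5 and 0.184 for Efemp1. The share of all genes called in that smaller fit was not counted. The authors' deposited table lists the same 9 genes at an adjusted p under 0.05 in this comparison. Tenocyte markers (Scx, Tnmd, Mkx, Thbs4 and Fmod, 5 of 5 in the files), which mark tendon cells, did not overlap either, at 968, 353, 570.0 and 272 RPM in sham 1 to 4, 247, 1065, 1084 and 464 in model 1 to 4, and 3260.5, 1656, 2848 and 2274 in treatment 1 to 4. Of these markers 3 were called higher in treatment against sham, with a list median log2 fold change of 2.29. Smooth muscle and pericyte markers, at most 1034 RPM in sham and at least 1264 in treatment libraries, did not overlap either. Of these 7 of 7 were called higher, with a list median of 1.96. The sums of fibroblast markers, given below, did not overlap, and 8 of 10 were called higher. The part of these lists in the levels of the 10 genes was not tested. The comparisons share libraries, so agreement between them adds nothing.

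**Figure D2:**
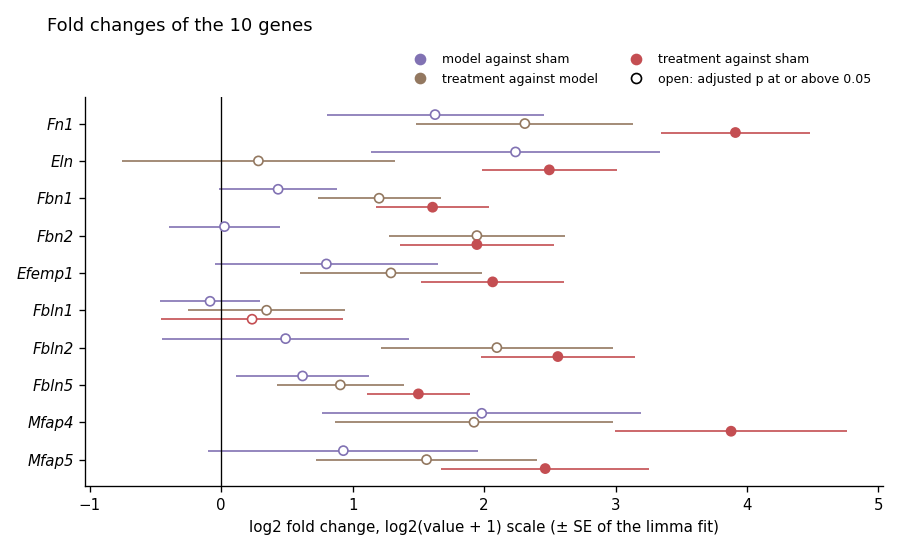
Log2 fold change of each gene on the log2(value + 1) scale, with the standard error of the limma fit, in the 3 comparisons; filled points have an adjusted p under 0.05. Filled points occur for 9 genes in treatment against sham and in no other comparison, from 1.50 for Fbln5 to 3.91 for Fn1.

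Libraries of a group differed along the family, and the order was not the same for Fn1 as for the other genes. Sham 1 was the highest sham library for 8 of the 10 genes and sham 4 the lowest for 7. Model 1 was the lowest model library for 9 genes, and model 2 was the highest for 7. Treatment 4 was the highest treatment library for Eln, Fbn1, Fbn2, Fbln1, Fbln2, Mfap4 and Mfap5 and the lowest for Fn1. The 9 genes other than Fn1 summed to 1047, 371, 565 and 257 RPM in sham 1 to 4, 266, 2526, 1161 and 869 in model 1 to 4, and 1186, 971, 2340.0 and 2901 in treatment 1 to 4, so treatment 4 had the highest sum and model 2 the next. Reads of Fn1 per read of Fbn1 were 11.3, 5.62, 8.28 and 8.51 in sham 1 to 4, 12.2, 25.6, 45.6 and 8.63 in model 1 to 4, and 78.5, 81.4, 42.2 and 9.92 in treatment 1 to 4. Treatment 4 thus lay inside the sham range of this ratio, which ran from 5.62 to 11.3, while treatment 1, 2 and 3 lay at 42.2 to 81.4. Fn1 made up 95.3% to 97.4% of the family's reads in treatment 1 to 3 and 82.7% in treatment 4, against 77.9% to 85.7% in sham libraries. Reads of Eln per read of Fbn1 were 0.238, 0.105, 0.125 and 0.162 in sham 1 to 4, 0.109, 1.77, 0.565 and 0.695 in model 1 to 4, and 0.366, 0.294, 0.222 and 0.250 in treatment 1 to 4. Model 2, 3 and 4 had the highest ratios of all, and the treatment libraries overlapped sham only in part, through sham 1 and treatment 3.

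Taken as a sum, the synovial lining markers (6 of 6 in the files) separated the same libraries as Fn1 did. They are Prg4, Clic5, Htra4, Has1, Cd55 and Tspan15, which mark fibroblasts facing the joint space. They summed to 1452, 360.2, 331 and 380.2 RPM in sham 1 to 4, 634, 4699.9, 5091 and 334 in model 1 to 4, and 5303, 8608, 6105 and 456 in treatment 1 to 4. The 5 highest sums were in model 2, model 3 and treatment 1, 2 and 3, the 5 libraries in which Fn1 took 1.76% of reads or more, and the sum of treatment 4, 456 RPM, lay within the sham range. Treatment 4 had more Fn1 than any sham library, at 1.38% of reads. Prg4 weighed heavily in the sum. Its mean normalised value in treatment libraries was 71700, beside 8311 for Htra4, 5205 for Clic5, 4719 for Cd55 and 871 for Has1. Of the 6 markers, 2 were called higher in treatment against sham, against 17.3% of all genes. In model against sham 5 of the 6 had a positive log2 fold change, and Clic5 had -0.20. In treatment against model and in treatment against sham 5 of the 6 were positive as well, and Tspan15 had -0.50 and -0.13. The part of the synovial lining in the level of Fn1 was not tested.

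Fibroblast markers were also higher in treatment libraries, so the genes were read against them. The 10 markers were Pdgfra, Col1a1, Col1a2, Col3a1, Dcn, Lum, Dpt, Pi16, Thy1 and Pdpn, all in the files. Of these 8 were called higher in treatment against sham, against 17.3% of all genes. The list had a median log2 fold change of 2.76 there, beside 2.27 for the 10 fibronectin and elastic fibre genes. Its sum was 7746 to 21167 RPM in sham, 16263 to 23817 in model and 23087 to 80114 in treatment libraries. Reads of Fn1 per read of this list were 0.297, 0.101, 0.333 and 0.129 in sham 1 to 4, 0.138, 0.740, 0.967 and 0.160 in model 1 to 4, and 0.560, 1.48, 0.746 and 0.346 in treatment 1 to 4. All treatment libraries lay above all sham libraries, but treatment 4 exceeded sham 3 by little. For the other 9 genes together the ratio was 0.0495, 0.0288, 0.0730 and 0.0235 in sham 1 to 4, 0.0163, 0.106, 0.0508 and 0.0465 in model 1 to 4, and 0.0148, 0.0420, 0.0365 and 0.0725 in treatment 1 to 4. The 3 groups overlapped here, and treatment 1 was the lowest of the 12. Treatment 1 also had the highest osteoblast and chondrocyte sums, at 2234 and 12754 RPM, and their part in this ratio was not tested. Collagens made up 81.6% to 95.7% of the list. Against the 7 markers that are no collagens, a choice made after the values were seen, Fn1 stood at 3.79, 1.84, 2.77 and 2.64 in sham 1 to 4, 3.22, 5.26, 5.93 and 2.18 in model 1 to 4, and 5.18, 8.04, 5.87 and 2.67 in treatment 1 to 4 reads per marker read, and sham and treatment overlapped. The other 9 genes stood at 0.630, 0.522, 0.606 and 0.482 in sham 1 to 4, 0.381, 0.754, 0.312 and 0.634 in model 1 to 4, and 0.137, 0.229, 0.287 and 0.561 in treatment 1 to 4. Treatment 1, 2 and 3 lay below every sham library on this measure and treatment 4 within the sham range. On neither measure did the treatment libraries as a group lie above the sham libraries for these 9 genes.

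**Figure D3:**
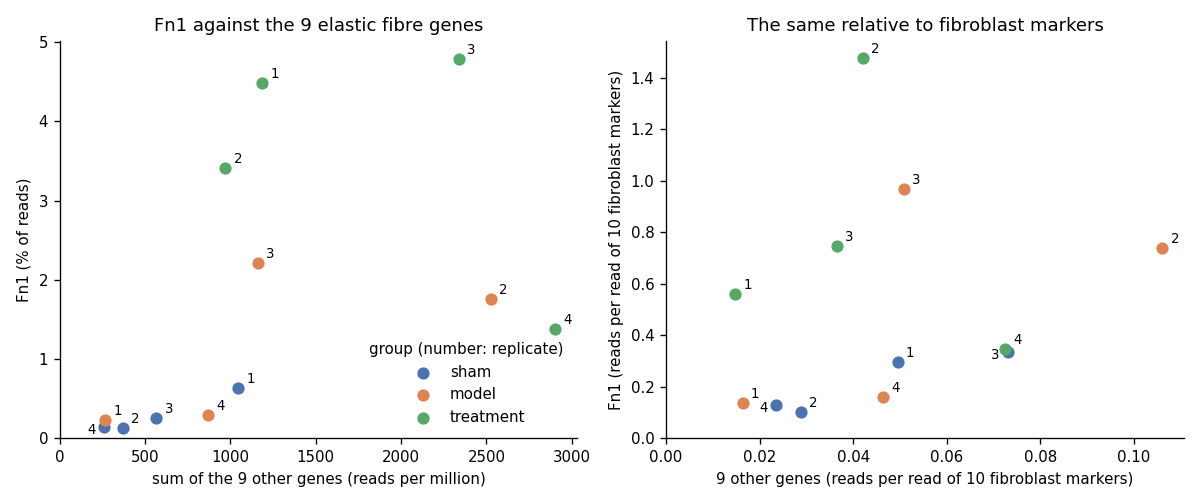
Left, Fn1 in percent of all reads against the summed RPM of the other 9 genes; right, both divided by the reads of 10 fibroblast markers. Each point is 1 library, coloured by group and numbered by replicate. On the left treatment 4 has the highest sum of the 9 genes and the lowest Fn1 of its group; on the right the groups overlap along the horizontal axis, and treatment 4 lies beside sham 3.

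Genes that act with fibronectin and elastic fibres were taken from 4 lists. The shares of all genes to hold their counts against are 3.6% called higher and 10.5% lower in treatment against model, and 17.3% and 19.5% in treatment against sham. Of 20 receptors and assembly genes of fibronectin, 2 were called higher and 0 lower in treatment against model, and 12 higher and 4 lower in treatment against sham. Sdc2, a cell surface heparan sulphate proteoglycan, had a log2 fold change of 1.48 ± 0.34 (adjusted p = 0.0249) in treatment against model and 2.63 ± 0.21 (adjusted p = 2.8e-05) in treatment against sham. Itgav, the integrin alpha-V chain, changed by 0.86 ± 0.24 (adjusted p = 0.0485) in treatment against model, a call that edgeR, at an adjusted p of 0.054, did not make. Itgb1, the beta chain of the main fibronectin receptor, changed by 1.52 ± 0.14 (adjusted p = 7.4e-05) in treatment against sham. The 4 genes called lower, a share close to that of all genes, were Itgb3, Itga4, Tln1 and Pxn, named after their values were seen. Itgb3 is the integrin beta chain of platelets and osteoclasts and Itga4 an integrin chain of white cells, and their fold changes were -3.02 ± 0.38 (adjusted p = 0.000362) and -1.83 ± 0.44 (adjusted p = 0.0111).

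Of 28 partners of microfibrils and elastic fibres, 4 were called higher and 1 lower in treatment against model (3.6% and 10.5% of all genes), and 19 higher and 1 lower in treatment against sham (17.3% and 19.5%). The 1 called lower in both was Vwce, named after its values were seen, at -3.36 ± 0.89 (adjusted p = 0.0392) and -3.51 ± 0.67 (adjusted p = 0.00298). Adamtsl5, a secreted protein that binds fibrillin, had 2.02 ± 0.41 (adjusted p = 0.0149) in treatment against model. Vcan, the large proteoglycan versican, had 1.88 ± 0.47 (adjusted p = 0.0319) there. In treatment against sham Hmcn1, a large fibulin-related matrix protein, had 3.58 ± 0.28 (adjusted p = 3.0e-05), and Efemp2, fibulin-4, which brings lysyl oxidase to tropoelastin, had 1.71 ± 0.24 (adjusted p = 0.000605). Of the crosslinking enzymes, named after their values were seen, Lox, Loxl1, Loxl2 and Loxl3 were among those called higher, at 3.09 ± 0.54, 2.23 ± 0.47, 2.92 ± 0.47 and 1.19 ± 0.37, and Loxl4 had 0.07 ± 0.58 (adjusted p = 0.934).

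Of 21 proteases that cut elastin or fibronectin and their inhibitors, 5 were called higher and 4 lower in treatment against model (3.6% and 10.5% of all genes), and 13 higher and 4 lower in treatment against sham (17.3% and 19.5%), where the number lower is close to the share of all genes. The 4 lower were the same in both comparisons, namely the neutrophil proteases Elane, Prtn3 and Ctsg and Slpi, an inhibitor of neutrophil elastase. Prtn3 had a log2 fold change of -7.27 ± 1.11 (adjusted p = 0.00475) and Elane of -7.67 ± 1.26 (adjusted p = 0.00626) in treatment against model. Elane is itself 1 of the 8 neutrophil markers, all of which were called lower there. Slpi had -4.50 ± 0.39 (adjusted p = 4.9e-05) in treatment against sham. Mmp12, the macrophage elastase, had 3.62 ± 1.08 (adjusted p = 0.301) in model against sham, where DESeq2 called it, and 7.98 ± 1.53 (adjusted p = 0.00472) in treatment against sham. Mmp3, a stromelysin that cuts fibronectin, had 2.96 ± 0.90 (adjusted p = 0.306) in model against sham, where DESeq2 called it too (adjusted p = 0.000364).

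Of 14 TGF-beta ligands, receptors and response genes, 4 were called higher and 0 lower in treatment against model (3.6% and 10.5% of all genes), and 10 higher and 0 lower in treatment against sham (17.3% and 19.5%). Tgfbi, a secreted protein that TGF-beta induces and that binds collagen and integrins, had 1.93 ± 0.34 (adjusted p = 0.00847) in treatment against model and 2.25 ± 0.36 (adjusted p = 0.00122) in treatment against sham. Postn, periostin, had 2.81 ± 0.60 (adjusted p = 0.0179) in treatment against model. Tgfb2 had 1.76 ± 0.28 (adjusted p = 0.00123) in treatment against sham, whereas Tgfb1, named after its values were seen, had -0.18 ± 0.25 (adjusted p = 0.599). In model against sham 0 genes of the 4 lists were called in limma. The nearest to a call there were Itgav, at 0.67 ± 0.15 (adjusted p = 0.203), and Sdc2, at 1.18 ± 0.31 (adjusted p = 0.267), for the receptors, Lox, at 1.27 ± 0.44 (adjusted p = 0.338), and Adamtsl1, at 1.78 ± 0.65 (adjusted p = 0.345), for the partners, and Tgfbr1, at 0.45 ± 0.17 (adjusted p = 0.345), and Tgfbr2, at 0.68 ± 0.25 (adjusted p = 0.347), for the TGF-beta genes. DESeq2 called Itgav (adjusted p = 0.00281) and Sdc2 (adjusted p = 0.0101) in that comparison, and limma called Sdc2 without model 1 (adjusted p = 0.0365). In treatment against model the 4 lists together had 15 genes called higher and 5 lower, and 8 and 6 on RPM. The calls of Sdc2, Itgav and Vcan there were lost without treatment 1, treatment 3 or model 4, that of Vcan also without treatment 4 or model 1, that of Postn without treatment 3 or model 4, and that of Adamtsl5 without model 4. Itgav lost its call also without treatment 4, model 1 or model 3, on RPM, in edgeR, at a pseudocount of 10 and with no filter. Median log2 fold changes of the lists in treatment against sham were 1.34 for receptors and assembly, 1.76 for partners, 1.96 for proteases and inhibitors and 1.19 for TGF-beta genes, against -0.01 over all genes.

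**Figure D4:**
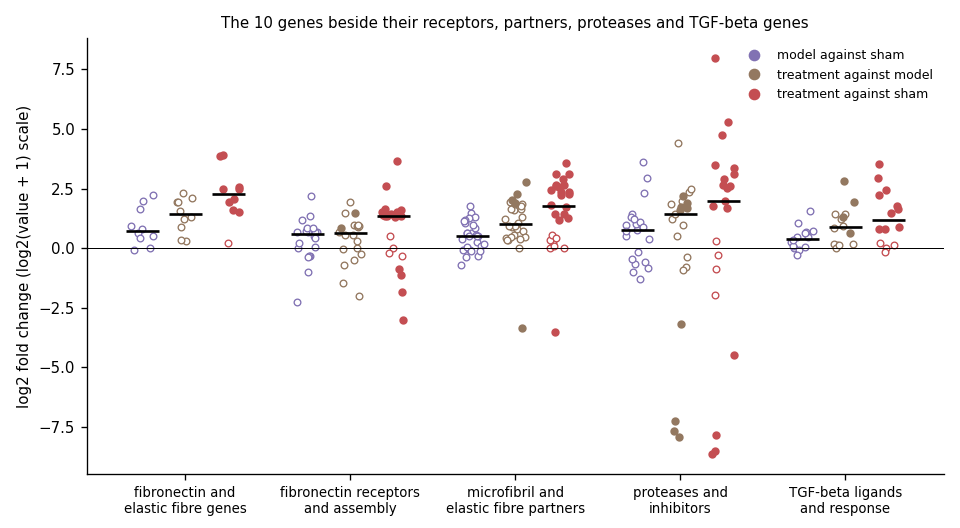
Log2 fold change on the log2(value + 1) scale of each gene of the family and of the 4 lists in the 3 comparisons; filled points have an adjusted p under 0.05 and the black line is the list's median. No point of model against sham is filled, and the 3 lowest filled points of treatment against model are Elane, Prtn3 and Ctsg.

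The genes whose pattern over the 12 libraries was nearest to that of Fn1 were Rspo2, Adamts16, Htra1, Itgb8 and Fbln7. Nearness is the root mean square difference of log2(RPM + 1), each gene centred on its mean, among 10807 genes that have a symbol and a mean of at least 3 on this scale. The differences were 0.298, 0.337, 0.428, 0.478 and 0.488, against a median of 1.97 over all genes compared. Rspo2 encodes a secreted amplifier of Wnt signalling and averaged 2.72, 10.5 and 38.3 RPM in sham, model and treatment libraries. Htra1 encodes a secreted serine protease that can cut fibronectin, and averaged 129.9, 384 and 1092 RPM. Itgb8 encodes an integrin chain that releases active TGF-beta with alpha-V, and Fbln7 a fibulin outside the 10 genes. The members of the family lay further off, from place 356 for Efemp1 to place 5390 for Fbln1, and Fbn2 was below the level needed. For Eln the nearest were Adamts15, Col4a2, Col18a1, Col4a1 and Tagln, at 0.491, 0.595, 0.614, 0.628 and 0.632, against a median of 1.79. Col4a1, Col4a2 and Col18a1 encode collagens of basement membranes, and Tagln an actin-binding protein of smooth muscle that is on the smooth muscle list above. Efemp1, at place 60, and Mfap5, at place 72, were the family members nearest to Eln.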

How the data were processed

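Per the labels' protocols, Trizol served for RNA extraction and the VAHTS Universal V5 kit for library construction. The tools named are fastp and DESeq2 and the genome build is mRatBN7.2, per the submitters' processing notes. The aligner, counter, annotation release and use of strand were not given in the sources used here. The deposited full tables, 1 per comparison, hold a normalised signal per gene, in which the authors divided each library's reads by 1 size factor. The deposited log2 fold changes and p-values are the authors' and were used only where named. Whole reads could be recovered from the steps of the values (100% whole within 0.001 reads); 241694 entries shared by tables differed in 0 cases. The reads of treatment 3 came from the treatment against sham table alone. Its values in the treatment against model table were left out of these checks, although the limma fits of that comparison used them. In the copies used, 1 line of each table was left empty.

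The members and lists were chosen with earlier results of these data known. Each table was fitted alone in limma 3.58.1 (R 4.3.3) on log2(value + 1), after leaving out genes whose mean value was under 1, with trend and robust settings and Benjamini-Hochberg adjustment over all genes tested. Alternatives were pseudocounts of 0.5 and 10, no filter, a mean of at least 10, edgeR 4.0.16 and DESeq2 1.42.0 on recovered reads, RPM in place of size factors, the replicate number as a block, each library left out, and no muscle-rich libraries. The fit was tested on simulated data. From each list and comparison the 2 genes with the smallest p were named, except 1 that is not reported here, and for Fn1 and Eln the 5 nearest genes. Within a group, libraries differed by far more than sampling noise (chi-square per degree of freedom 17.4 to 318), so none was counted as a copy of another.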

Additional observations from a re-analysis of the deposited data

Results flagged for a closer look

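In 30 sets of 4 libraries, each gene in each group, the gap between the farthest library and its neighbour was set against the whole range of the set, both on the log2(RPM + 1) scale, with Dixon's critical value for 4 samples as the limit, which chance passes in about 1 in 20 sets. The 2 sets past it are close to that share of 30. Fbn2 in sham 2, at 2.216 RPM, lay below the other sham libraries at 3.69 to 3.95 RPM, with a gap of 0.874 of the range. Fbln5 in treatment 3, at 127.77 RPM, lay above the other treatment libraries at 54.4 to 59.2 RPM, with a gap of 0.901 of the range.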

How the results depend on the processing

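Of 510 values of the 10 genes under alternatives, 471 kept sign and side of the threshold, 19 lost a call, 3 gained one and 17 turned sign, all of them values without a call. Calls among the 10 genes in model against sham were 0, and 1 in DESeq2; calls in the 4 lists were 0, 7 in DESeq2 and 0 to 2 with a library left out (2 without model 1). In treatment against model they were 0, 1 in DESeq2 and 0 to 1 with a library left out (1 without treatment 1), and in the lists 20 (15 higher, 5 lower), 38 in DESeq2 (30 and 8), 14 on RPM (8 and 6), and 5 to 32 with a library left out. The extremes were without model 4 and without model 2, and the count was 7, 6 and 11 without treatment 1, 3 and 4, and 10 without model 1. In treatment against sham they were 9, 4 without the muscle-rich libraries, and 7 to 9 with 1 library left out, and in the lists 63, 47 without the muscle-rich libraries (39 and 8), and 54 to 67 with 1 library left out. Shares of all genes called were counted for the main limma fits alone. Whether a count under an alternative moved with the calls over all genes was therefore not tested.

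The sign changes concerned the following genes. In model against sham without the muscle-rich libraries they were Mfap5 (-0.26), Efemp1 (-0.016), Fbln2 (-0.34), Fbn1 (-0.060) and Fbn2 (-0.15). With 1 library left out, Fbln1 ran from -0.37 to 0.16 (main value -0.085, above 0 without model 1, sham 1 or sham 3) and Fbn2 from -0.35 to 0.25. In treatment against model Fbln1 ran from -0.18 (without treatment 4) to 0.92 and Eln from -0.81 (without model 1) to 1.15, and Eln was -0.76 in edgeR and -0.77 in DESeq2. In treatment against sham Fbln1 ran from -0.29 (without treatment 4) to 0.82, with -0.052 without sham 4. The cause was not tested.

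Replicate numbers were also fitted as a block, which gave 0, 0 and 8 calls among the 10 genes and 0, 14 and 61 in the lists, in the order above. The block lost the call of Mfap5 in treatment against sham (adjusted p = 0.0783) and of Sdc2 (0.0571), Itgav (0.0957) and Vcan (0.0607) in treatment against model. Same-numbered libraries had correlations of deviations from -0.56 to 0.34. The best match had the same number for 2 and 3 in treatment against sham and for 3 in treatment against model, and another number elsewhere. With 4 libraries per group that differ in tissue make-up, these values cannot decide whether the numbers pair the libraries. The fewest reads behind a value of the 10 genes were 31, for Mfap4 in sham 4.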
